A study of Mus musculus with 6 samples.

Results

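The genes described here encode the T cell receptor (TCR) complex and the proteins that carry its signal in the first steps below the membrane. They are Cd3e, Cd3d, Cd3g, Cd247, Cd4, Lck, Zap70, Lat and Lcp2, chosen by symbol from the deposited gene table. All 9 were found among its 26469 gene rows, and all 9 were among the 18323 genes tested. RNA was sequenced from 6 cultures of mouse splenic CD4+ T cells, in 2 groups of 3. In the mutant group, annotated as Sf3b1 mutation, naive cells came from Sf3b1K700E/fl mice that also carried the Cd4Cre recombinase. The control group, annotated as WT, came from Sf3b1K700E/fl mice without Cre. K700E is a change in the splicing factor SF3B1 that recurs in human cancers. Cd4Cre is driven by regulatory sequence of Cd4 and is active from the thymic stage that carries both CD4 and CD8, so CD8 lineage cells of such mice carry the recombined allele too. All 6 cultures received TGF-β at 5 ng/ml, hamster antibodies to CD3 and CD28, and antibodies that block IL-4 and IFNγ, for 36 h. This is a mixture used to turn naive cells into regulatory T cells. The study asked how the mutation affects this differentiation.

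The αβ TCR recognises peptide held by an MHC molecule but has no signalling tail of its own. It depends on the CD3ε, CD3δ and CD3γ chains and on the ζ chain, encoded by Cd247, whose cytoplasmic tyrosine motifs (ITAMs) are phosphorylated by the kinase LCK. LCK is brought to the receptor by the coreceptor CD4. Phosphorylated ITAMs recruit the kinase ZAP-70, which phosphorylates the adaptor LAT, and LAT together with SLP-76 (encoded by Lcp2) assembles the enzymes that raise calcium and activate Ras and NF-κB. In these cultures the stimulus was an antibody to CD3 itself, so the protein products of this group were also the target of the treatment.

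Sequences upstream of 4 of the genes are shown first, because Cd3e and Lck stand for the genes with a common library pattern described below, Zap70 is the 1 gene whose groups did not overlap, and Lcp2 is a gene outside the common pattern. Each is the 250 bases before the first listed transcription start in RefSeq (build GRCm38.p6), written 5′ to 3′ on the strand of the gene. Capitals mark AGGAAG or its reverse complement CTTCCT, a core bound by ETS family factors, which are prominent regulators of lymphocyte genes.
Cd3e (chr9:45009612-45009861, minus strand): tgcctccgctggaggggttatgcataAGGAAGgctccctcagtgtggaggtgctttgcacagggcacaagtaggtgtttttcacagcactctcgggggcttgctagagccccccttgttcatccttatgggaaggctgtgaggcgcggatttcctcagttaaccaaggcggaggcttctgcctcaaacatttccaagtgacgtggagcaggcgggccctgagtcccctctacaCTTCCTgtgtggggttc
Lck (chr4:129573642-129573891, minus strand): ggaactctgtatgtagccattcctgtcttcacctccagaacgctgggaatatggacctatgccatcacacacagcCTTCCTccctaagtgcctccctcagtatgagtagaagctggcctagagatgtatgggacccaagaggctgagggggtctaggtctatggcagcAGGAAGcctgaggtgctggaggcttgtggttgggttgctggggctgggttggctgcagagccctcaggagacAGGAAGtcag
Zap70 (chr1:36761548-36761797, plus strand): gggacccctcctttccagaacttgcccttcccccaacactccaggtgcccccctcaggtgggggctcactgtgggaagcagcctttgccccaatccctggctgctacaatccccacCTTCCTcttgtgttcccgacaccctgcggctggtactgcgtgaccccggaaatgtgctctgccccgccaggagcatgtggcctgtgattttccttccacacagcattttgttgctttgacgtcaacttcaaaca
Lcp2 (chr11:34046678-34046927, plus strand): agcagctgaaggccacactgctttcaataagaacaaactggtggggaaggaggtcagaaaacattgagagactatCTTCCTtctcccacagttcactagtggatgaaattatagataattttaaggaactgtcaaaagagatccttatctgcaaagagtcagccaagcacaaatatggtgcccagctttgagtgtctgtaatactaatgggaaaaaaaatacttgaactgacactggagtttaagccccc

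The RefSeq table held a promoter for 8 of the 9 genes, and Cd4 had no entry. AGGAAG on either strand was found in the 250 bases before the first start in 7 of those 8 genes, and in 29.5% of the 32851 starts of all genes in the same window. The gene without it was Cd3g. Over all 11 listed starts of these genes, 9 had it. Upstream of the first start the nearest copy lay at distances from 10 bases in Lck to 198 bases in Cd3d. TGTGGT on either strand, a core of the RUNX factors, was found upstream of 2 of the 11 starts, the first of Lck and the second of Zap70, beside 14.0% of the starts of all genes. These motifs were picked after the sequences had been read, and a match is a description of letters, not a binding site.

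The deposited counts added up to between 34524433 and 36867313 in the mutant and between 33633196 and 43928723 in the control libraries. Mutant 1 stood apart from the other 5 libraries along the first principal component of log2 levels, which held 41.0% of the variance and put it at 89.8 against -24.6 to -7.1 for the rest. Mutant 1 had the highest level of the 6 libraries in 30.6% of all genes tested and the lowest in 29.2%. Control 1 differed from the other 5 in sex-linked transcripts, with Xist at 3558 CPM before scaling (at most 0.657 CPM in the rest) and Ddx3y at 0. Sf3b1 itself was at 627 ± 30.4 CPM in mutant and 661 ± 44.3 CPM in control cells (SD, n = 3 each). Counts per gene do not tell the alleles apart, so they do not check the genotype. CPM of single genes here means counts scaled to a common library size by the TMM factors, while sums over cell type markers are per unscaled library total. No label states that each culture came from its own animal, so what a p-value measures is spread between these 6 samples, part of which may be technical.

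None of the 9 genes differed between mutant and control cells by edgeR's quasi-likelihood test at an adjusted p of 0.05, and neither did any other gene. The count was 0 of 9, beside 0.00% of the 18323 genes tested. At an unadjusted p under 0.05 it was 1 of 9, Zap70, which was higher in mutant cells, beside 7.62% (1396 genes) of all genes tested in either direction, 4.14% higher and 3.48% lower. DESeq2 and limma-voom also called 0 of the 9, beside 0.640% and 0.00% of all genes with an adjusted p. At an unadjusted p under 0.05 limma-voom called 7.08% of all genes tested. The mean was higher in mutant cells in 7 of the 9 genes, beside 52.9% of all genes tested, and the median log2 fold change was 0.20, beside 0.024 over all genes tested. That balance rested on mutant 1. It had the highest level of all 6 libraries in 7 of the 9 genes (30.6% of all genes tested), and without it the mean was lower in mutant cells in 8 of the 9, all but Zap70. Of all genes fitted without mutant 1, 52.1% had a higher mean in mutant cells. The median log2 fold change without mutant 1 was -0.11 (0.011 over all genes). Control 2 weighed on the balance in the other direction, and without it the mean was higher in mutant cells in 8 of the 9. In bulk RNA a lower share of T cells and less RNA of a gene per T cell cannot be told apart.

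**Figure D1:**
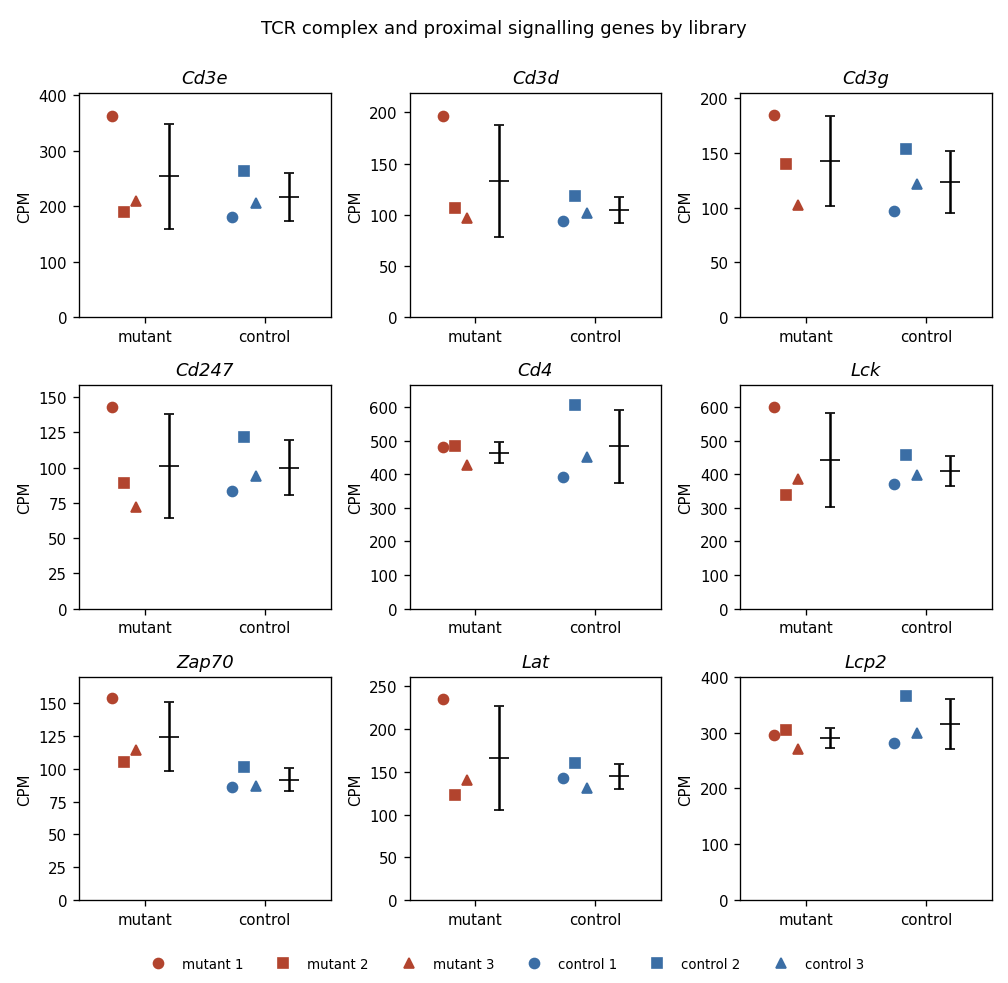
Level of each of the 9 genes in CPM (vertical axis, from 0) in the 3 mutant and 3 control libraries. Symbols are libraries, and the dash and bar are the mean and SD of each group (n = 3). Mutant 1 is the highest point in every panel except Cd4 and Lcp2, and Zap70 is the panel in which all mutant points lie above all control points.

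The 4 signalling chains of the receptor shared a pattern across libraries that cut across the groups. Cd3e (ENSMUSG00000032093), which encodes the ε chain that pairs with both δ and γ and is the chain most anti-CD3 antibodies bind, was at 363, 189 and 209 CPM in mutant 1, 2 and 3, against 180, 264 and 205 CPM in control 1, 2 and 3. Mutant 1 was well above every other library, and mutant 2 and mutant 3 lay inside the control range. The difference came to 0.23 ± 0.27 on the log2 scale (SE, with a 95% interval of -0.39 to 0.85, edgeR adjusted p = 0.835). Cd3d (ENSMUSG00000032094), which encodes the δ chain, was at 196, 106 and 97.0 CPM in mutant 1, 2 and 3, against 93.5, 118 and 102 CPM in control 1, 2 and 3. Again mutant 1 alone exceeded the controls, and it was 1.9 times the mean of the other 5 libraries, the widest such gap among the 9 genes. The log2 fold change of Cd3d was 0.35 ± 0.27 (SE, interval -0.28 to 0.98, edgeR adjusted p = 0.770).

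The γ chain gene Cd3g (ENSMUSG00000002033) was at 185, 140 and 102 CPM in mutant 1, 2 and 3, against 96.6, 153 and 121 CPM in control 1, 2 and 3. Here the libraries of both groups were spread over a wide range, with control 2 above mutant 2. For Cd3g the log2 fold change was 0.20 ± 0.25 (SE, interval -0.38 to 0.78, edgeR adjusted p = 0.843). Cd247 (ENSMUSG00000005763), which encodes the ζ chain with its several ITAMs, was at 143, 89.2 and 72.2 CPM in mutant 1, 2 and 3, against 83.8, 122 and 94.2 CPM in control 1, 2 and 3. Mutant cultures held both the highest and the lowest level, and the group means were close, at 101 ± 37.0 CPM in mutant and 99.9 ± 19.6 CPM in control cells (SD, n = 3 each). The log2 fold change of Cd247 was 0.022 ± 0.27 (SE), and its interval from -0.60 to 0.64 leaves room for a difference of either sign. Without mutant 1 the log2 fold changes were -0.11 for Cd3e, -0.029 for Cd3d, -0.017 for Cd3g and -0.30 for Cd247. Annotated genes on the opposite strand overlap Cd247, among them Pou2f1, and Cd3e, Zap70 and Lcp2 have an opposite-strand neighbour of their own in GENCODE M21. Reads of such partners cannot be told apart without strand, and whether counting used it is not given in the sources used here.

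Cd4 (ENSMUSG00000023274), the coreceptor that binds MHC class II and carries LCK, did not follow the CD3 genes. It was at 480, 485 and 427 CPM in mutant 1, 2 and 3, against 391, 604 and 452 CPM in control 1, 2 and 3. Its 3 mutant values all lay inside the control range. For Cd4 the log2 fold change was -0.056 ± 0.18 (SE, interval -0.48 to 0.37, edgeR adjusted p = 0.942). Control 2 was the highest library, and without it the log2 fold change of Cd4 was 0.14. Cd4 was thus at 391 CPM or more in every library, while Cd8a and Cd8b1, which encode the coreceptor of CD8 T cells, added up to 6.72 to 17.6 unscaled CPM in mutant and 5.85 to 41.3 unscaled CPM in control libraries. The control library at 41.3 CPM was control 1.

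Of the 2 kinases, Zap70 gave the clearest separation between groups and Lck gave none. Lck (ENSMUSG00000000409), the Src family kinase that phosphorylates ITAMs, was at 601, 339 and 384 CPM in mutant 1, 2 and 3, against 371, 458 and 399 CPM in control 1, 2 and 3. Mutant 1 was the highest and mutant 2 the lowest library. For Lck the log2 fold change was 0.11 ± 0.23 (SE, interval -0.42 to 0.63, edgeR adjusted p = 0.905), and -0.17 without mutant 1. Zap70 (ENSMUSG00000026117), the Syk family kinase that docks on phosphorylated ITAMs, was at 154, 105 and 114 CPM in mutant 1, 2 and 3, against 85.9, 102 and 86.9 CPM in control 1, 2 and 3. Every mutant library lay above every control library, but the margin between mutant 2 and control 2 was small. Groups lay apart in this direction in 6.60% of all genes tested, with the mutant below in 7.48%, and in either direction in 14.1%. The log2 fold change of Zap70 was 0.44 ± 0.18 (SE, interval 0.032 to 0.85), with an edgeR unadjusted p of 0.0378 and an adjusted p of 0.645. The unadjusted p was above 0.05 in DESeq2 (0.0656), without control 1 (0.116), without control 3 (0.109) and without mutant 1 (0.0693). Without mutant 1 the log2 fold change of Zap70 was 0.27, and over the fits that left out 1 library it ran from 0.27 to 0.57, with an edgeR adjusted p of at least 0.377. This is a difference that did not pass the correction. Finding 1 of 9 genes with groups apart is near the share of 14.1% over all genes tested.

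The adaptors differed from each other in pattern. Lat (ENSMUSG00000030742), the membrane scaffold phosphorylated by ZAP-70, was at 236, 123 and 140 CPM in mutant 1, 2 and 3, against 143, 161 and 131 CPM in control 1, 2 and 3. Mutant 1 was the highest and mutant 2 the lowest library, as in Lck. The log2 fold change of Lat was 0.20 ± 0.25 (SE, interval -0.37 to 0.77, edgeR adjusted p = 0.847), and -0.13 without mutant 1. Lcp2 (ENSMUSG00000002699), whose product SLP-76 joins LAT through the adaptor GADS, was at 296, 305 and 270 CPM in mutant 1, 2 and 3, against 282, 366 and 299 CPM in control 1, 2 and 3. It was the steadiest of the 9 genes, with a coefficient of variation of 11.0% over the 6 libraries against 15.4% for Cd4 and 22.2% to 32.7% for the other 7. For Lcp2 the log2 fold change was -0.12 ± 0.15 (SE, interval -0.46 to 0.23, edgeR adjusted p = 0.846). Mutant 1 was at 0.973 times the mean of the other 5 libraries for Lcp2 and at 1.02 times for Cd4, and between 1.5 times (Cd3g) and 1.9 times (Cd3d) for the other 7 genes.

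**Figure D2:**
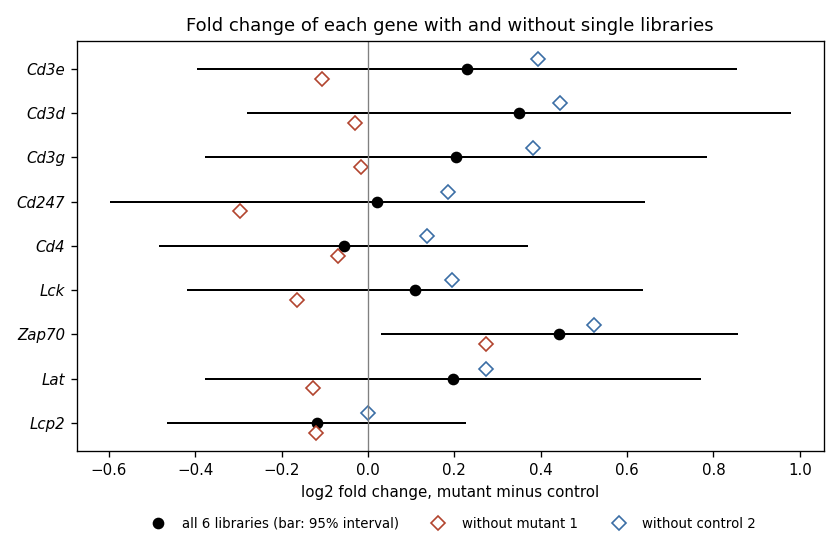
Log2 fold change, mutant minus control (horizontal axis), of the 9 genes. Black points and bars are the estimate on 6 libraries and its 95% interval, and open diamonds are the estimates without mutant 1 (red) or without control 2 (blue). The Zap70 interval, from 0.032 to 0.85, is the one that does not include 0, and without mutant 1 the estimates of Cd3e, Cd3d, Cd3g, Cd247, Lck and Lat are below 0.

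Order across libraries was shared as well. In 6 of the 9 genes mutant 1 was the highest and control 2 the second highest library, and control 2 was highest in Cd4 and Lcp2 (18.9% of all genes tested were highest in control 2). Control 1 was the lowest library in 5 of the 9, beside 12.9% of all genes tested. Averaged over the 9 genes and centred on the mean of the 6 libraries, the log2 level was 0.47, -0.11 and -0.17 in mutant 1, 2 and 3, against -0.24, 0.18 and -0.12 in control 1, 2 and 3. The 5 other genes whose profile lay nearest to this mean, among 12889 with a mean log2 CPM of at least 1, were Gm6169, Eif3h, Rnpepl1, Ccm2 and Dazap2. Their root mean square difference from it over the 6 libraries ran from 0.028 for Gm6169 to 0.050 for Dazap2 on the log2 scale. Eif3h, a subunit of translation initiation factor eIF3, was at 347, 242 and 239 CPM in mutant 1, 2 and 3, against 225, 290 and 244 CPM in control 1, 2 and 3. None of the 5 is a component of the TCR. The 9 genes themselves lay from 0.095 (Lck) to 0.22 (Lcp2) from the mean profile. The 5 were picked as the nearest of 12889, so their smaller distances follow from that choice.

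Ratios of 2 genes within a library do not depend on how libraries are scaled, and 6 were compared. The two-sided exact permutation test used for them cannot give a p below 0.1 with 3 against 3. The ratio of Zap70 to Lck was 0.256, 0.309 and 0.298 in mutant 1, 2 and 3, against 0.231, 0.222 and 0.218 in control 1, 2 and 3. All mutant values exceeded all control values, and mutant 1 was the closest to the controls. The log2 difference was 0.36 (exact permutation p = 0.1, adjusted over the 6 ratios 0.3). The ratio of Lck to Fyn, the other Src family kinase of T cells, was 2.27, 2.38 and 2.36 in mutant 1, 2 and 3, against 2.40, 2.57 and 2.51 in control 1, 2 and 3. These groups lay apart too, by a log2 difference of -0.093 (exact permutation p = 0.1, adjusted 0.3), with mutant 2 just below control 1. Both ratios contain Lck, so their separations are not independent of each other.

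Among the receptor chains, the ratio of Cd247 to Cd3e was 0.394, 0.472 and 0.345 in mutant 1, 2 and 3, against 0.465, 0.462 and 0.459 in control 1, 2 and 3. The 3 control libraries lay close together and the mutant libraries fell on both sides of them (log2 difference -0.21, exact permutation p = 0.4). The ratio of Cd3d to Cd3e averaged 0.522 ± 0.052 in mutant and 0.488 ± 0.036 in control cells, and that of Cd3g to Cd3e 0.579 ± 0.14 and 0.569 ± 0.029 in mutant and control cells (SD, n = 3 each; exact permutation p = 0.4 and 1.0). The ratio of Lcp2 to Lat was 1.26 in mutant 1 and 2.48 and 1.93 in mutant 2 and 3, against 1.96 to 2.28 in control cells (exact permutation p = 0.6). In mutant 1 Lat was at its highest while Lcp2 was within the control range.

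**Figure D3:**
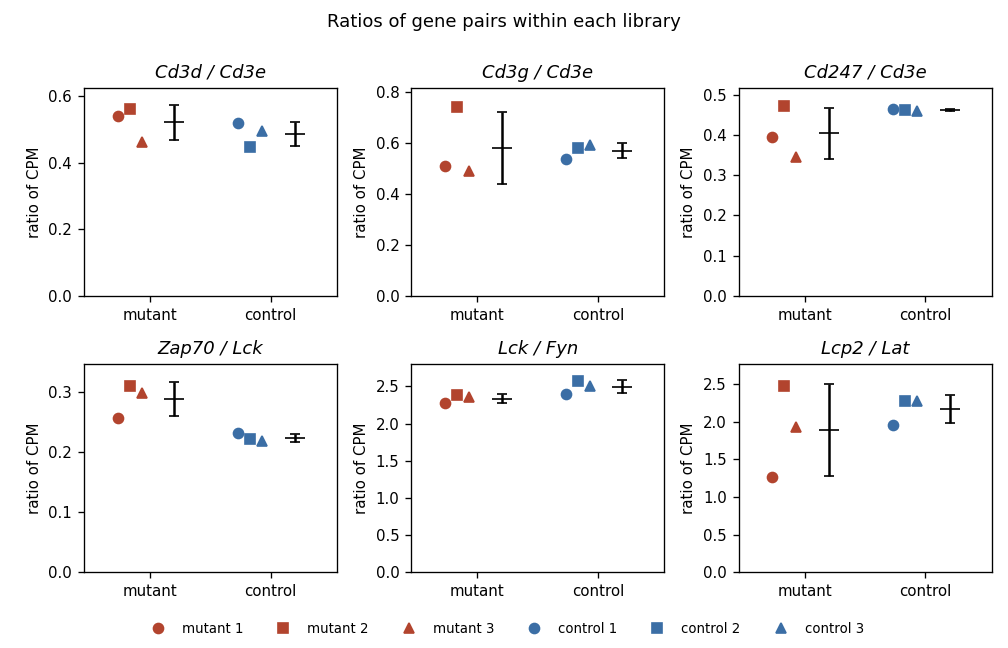
Ratio of CPM between 2 genes of the same library (vertical axes, from 0) for 6 pairs, in the 3 mutant and 3 control libraries. Symbols are libraries, and the dash and bar are the mean and SD of each group (n = 3). The ratio of Zap70 to Lck puts all mutant points above all control points, that of Lck to Fyn puts them below, and in the other panels the groups overlap.

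Levels of different genes were compared per kilobase of the principal transcript in GENCODE M21, whose build (GRCm38) differs from that of the counts. With principal transcript lengths Lck was the most abundant at 202 ± 64.0 CPM per kilobase in mutant and 187 ± 20.3 in control cells, and Zap70 the least at 55.4 ± 11.6 in mutant and 40.7 ± 3.92 in control cells (SD, n = 3 each). Between them stood Cd4 (149 ± 10.3 in mutant and 155 ± 35.3 CPM per kilobase in control cells), Cd3e (174 ± 64.9 and 148 ± 29.2, in the same order), Cd3g (139 ± 40.2 and 121 ± 27.7), Lat (135 ± 49.2 and 118 ± 11.9), Lcp2 (79.7 ± 4.92 and 86.6 ± 12.2), Cd3d (82.4 ± 34.0 and 64.6 ± 7.72) and Cd247 (62.2 ± 22.7 and 61.2 ± 12). In control cells neighbours in this order lay apart over the 3 libraries at 3 steps, Lat above Lcp2, Lcp2 above Cd3d, and Cd247 above Zap70. At the other steps in control cells their ranges overlapped. By their means mutant cells had another order, with Cd3e above Cd4 and Cd3d above Lcp2, and neighbours in that order overlapped at every step. Lat also lay apart from Lcp2 in mutant cells, at 99.6 or more against 83.7 or less CPM per kilobase. The order depends on the length used. With merged exon lengths, an alternative chosen after the data were seen, Lck was again the most abundant in control cells (140 CPM per kilobase) and Cd4 next (120), but Cd247 was the least (18.8) and Zap70 next to it (30.6). On that scale Lcp2 (70.7) and Cd3d (57.6) stood above Cd3e (53.1), Lat (52.5) and Cd3g (37.8) in control cells.

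The rest of the pathway was read in lists, and in none of them did a gene pass edgeR's test (0 called in either direction, beside 0.00% of all genes tested). The constant regions of the TCR chains showed the library pattern of the CD3 genes. Trbc2 was at 296 ± 140 CPM in mutant and 227 ± 46.8 CPM in control cells, Trbc1 at 169 ± 68.0 and 130 ± 22.6 CPM, and Trac at 236 ± 46.4 and 234 ± 22.5 CPM (SD, n = 3 each, mutant first). Mutant 1 was the highest library in all 3, as in 30.6% of all genes, and their median log2 fold change was 0.38, and -0.061 without mutant 1. Trbc1 and Trbc2 are near-identical copies, so the split of reads between them is uncertain.

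Of 13 kinases, phosphatases and ubiquitin ligases that act at the receptor, in mutant cells 9 had a higher and 4 a lower mean, with a median log2 fold change of 0.15 (0.024 over all genes tested), and -0.071 without mutant 1. Ptprc, which encodes the phosphatase CD45 that keeps LCK active, was at 1586 ± 10.4 CPM in mutant and 1409 ± 109 CPM in control cells without overlap (log2 fold change 0.17 ± 0.13, SE; edgeR adjusted p = 0.768). Ptpn2, a phosphatase that restrains TCR and cytokine signals, was at 56.1 ± 4.52 and 63.1 ± 1.39 CPM in mutant and control cells, also without overlap (-0.17 ± 0.13, SE, and -0.095 without mutant 1; edgeR adjusted p = 0.762). Of the 13, groups lay apart in 1 with the mutant above and in 1 with it below, beside 6.60% and 7.48% of all genes tested. Txk, a Tec family kinase, was at 77.5 CPM in mutant 1 against 12.8 to 27.8 CPM in the other 5 libraries, and its log2 fold change was 0.84, and -0.21 without mutant 1. Ubash3b, a phosphatase that dampens ZAP-70, was at 193 CPM in mutant 1 and at 75.5 to 116 CPM in the other 5, with a log2 fold change of 0.41, and -0.071 without mutant 1.

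Among 18 further adaptors in mutant cells 14 had a higher and 4 a lower mean, with a median log2 fold change of 0.15. Mutant 1 was the highest library in 10 of the 18, and without it the median was 0.002. The smallest p belonged to Trat1, which encodes the TCR-associated adaptor TRIM, at 35.4, 57.3 and 33.1 CPM in mutant 1, 2 and 3, against 55.5, 78.5 and 64.3 CPM in control 1, 2 and 3. Its groups overlapped through mutant 2, and its log2 fold change was -0.66 ± 0.24 (SE; edgeR unadjusted p = 0.0267, adjusted p = 0.644) and -0.54 without mutant 1. Lax1, a negative regulator built like LAT, was at 39.6 ± 16.1 CPM in mutant and 25.6 ± 5.44 CPM in control cells, Sh2d2a, which encodes the LCK-binding adaptor TSAd, at 176 ± 38.3 and 133 ± 17.7 CPM, and Dok2, an inhibitory adaptor, at 29.5 ± 12.6 and 21.1 ± 0.840 CPM (mutant first; adjusted p from 0.683 to 0.717). Their log2 fold changes were 0.63 for Lax1, 0.40 for Sh2d2a and 0.49 for Dok2, and without mutant 1 they were 0.30 for Lax1, 0.24 for Sh2d2a and 0.093 for Dok2. Of 17 downstream effectors 12 had a higher and 5 a lower mean, with a median of 0.17, and -0.099 without mutant 1. The means of calcineurin subunit genes lay on opposite sides, with Ppp3cb at 136 ± 11.4 CPM in mutant and 161 ± 5.92 CPM in control cells without overlap, and Ppp3ca at 31.2 ± 13.3 and 22.8 ± 1.75 CPM with overlap. Ppp3cb was the 1 gene of the 17 whose groups lay apart, beside 14.1% of all genes tested. The log2 fold change of Ppp3ca was 0.46, and 0.11 without mutant 1. Malt1, which encodes a protease of the complex that links the TCR to NF-κB, was at 369 ± 34.4 CPM in mutant and 443 ± 57.8 CPM in control cells.

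Of 7 other coreceptors and accessory receptors 4 had a higher and 3 a lower mean, with a median log2 fold change of 0.38, and -0.048 without mutant 1. They included genes whose log2 fold change moved little without mutant 1, among them Cd5, Cd6 and Cd2. Cd5, an inhibitory receptor whose level on T cells follows the strength of TCR signalling, was at 357, 297 and 408 CPM in mutant 1, 2 and 3, against 218, 306 and 233 CPM in control 1, 2 and 3. Mutant 2 and control 2 overlapped, and the log2 fold change was 0.49 ± 0.19 (SE; edgeR unadjusted p = 0.0312, adjusted p = 0.645), and 0.50 without mutant 1. Cd6, its neighbour in family and function, was at 288 ± 29.5 CPM in mutant and 221 ± 38.8 CPM in control cells (log2 fold change 0.38 ± 0.17, SE, and 0.40 without mutant 1). Cd28, the costimulatory receptor targeted by the culture antibody, was at 445 CPM in mutant 1, and at 245 and 244 CPM in mutant 2 and 3 against 175 to 254 CPM in control cells, and its log2 fold change was 0.53, and 0.20 without mutant 1. Cd2, an adhesion receptor, was at 222 ± 59.7 and 283 ± 23.8 CPM in mutant and control cells (log2 fold change -0.35, and -0.33 without mutant 1).

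Most of the listed genes that TCR signalling induces were low in mutant 1, where CD3 genes were high. Of 14 such genes 5 had a higher and 9 a lower mean in mutant than in control cells, with a median log2 fold change of -0.17, and 0.004 without mutant 1. Among the 14, 10 were lowest in mutant 1, beside 29.2% of all genes, and 1 was highest there (Nfatc1, 153 CPM), beside 30.6%. The median log2 level relative to the control mean was -0.85 in mutant 1, against -0.080 and 0.043 in mutant 2 and 3 and -0.060 to 0.13 in the controls. The same median for the 9 TCR genes was 0.60 in mutant 1, -0.040 and -0.10 in mutant 2 and 3, and -0.15 to 0.22 in the controls. For 8 genes of the naive and quiescent state, a list added after earlier results of these data were known, it was 1.80 in mutant 1, against 0.23 and -0.27 in mutant 2 and 3 and -0.15 to 0.098 in the controls. Whether the state of activation of mutant 1 played a part in its levels of CD3 and LAT transcripts was not tested. Irf4, a transcription factor graded by TCR signal strength, was at 683 ± 93.9 CPM in mutant and 1009 ± 51.0 CPM in control cells without overlap (log2 fold change -0.56 ± 0.15, SE; edgeR adjusted p = 0.598), and -0.44 without mutant 1. Myc was at 253 ± 27.4 and 300.3 ± 13.4 CPM in mutant and control cells without overlap, Nr4a3 at 384 ± 273 and 672 ± 75.1 CPM, and Egr1 at 59.1 ± 20.7 and 77.8 ± 21.4 CPM. Groups lay apart in 2 of the 14, both with the mutant below, beside 7.48% of all genes tested (14.1% in either direction). The log2 fold change of Nr4a3 was -0.81, and -0.33 without mutant 1, and that of Egr1 was -0.40, and -0.16 without mutant 1.

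**Figure D4:**
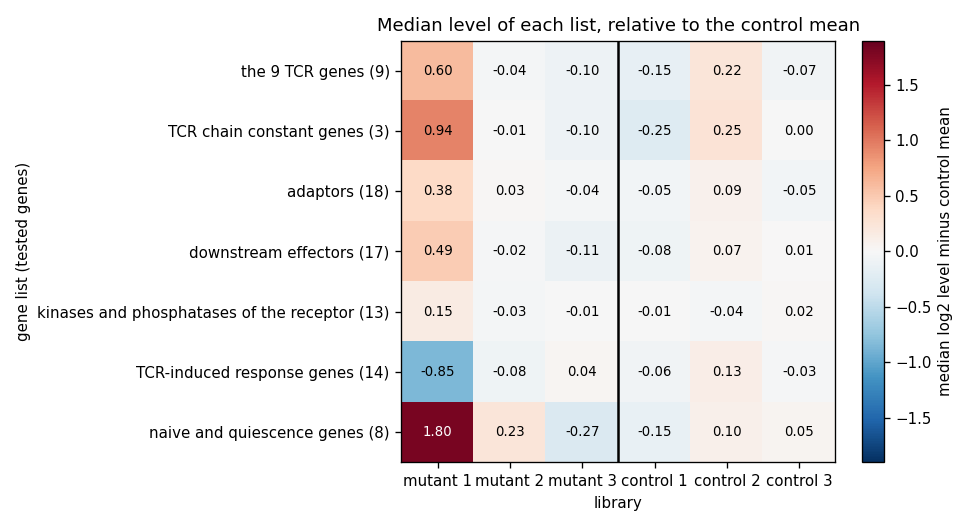
Median log2 level of each gene list (rows, with the number of tested genes) in each library (columns, mutant left of the line), relative to the mean of the 3 control libraries. Colour and printed number give the same value. Mutant 1 is at 0.60 for the 9 TCR genes, -0.85 for TCR-induced genes and 1.80 for naive and quiescence genes, while the other 5 libraries lie between -0.27 and 0.25 in every row.

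Transcripts of other cell types were low beside those of the 9 genes, and their sums are in unscaled CPM. The 5 B cell markers added up to 3.77, 41.0 and 8.19 CPM in mutant 1, 2 and 3, against 5.02, 1.78 and 2.5 CPM in control 1, 2 and 3, with Ms4a1 at 0 in mutant 1. By edgeR 4 of these 5 had an unadjusted p under 0.05, all higher in mutant cells, and 0 passed after adjustment, while DESeq2 called 1. The part of B cells in the results above was not tested. The 4 listed γδ T cell genes found in the table, whose cells also carry CD3, added up to 5.91 to 27.4 CPM in mutant and 2.38 to 13.2 CPM in control libraries, and were highest in mutant 2. The 6 myeloid markers reached at most 4.37 CPM in mutant and 3.60 CPM in control libraries, the 4 natural killer cell markers found reached 6.37 and 3.51 CPM, the 4 dendritic cell markers found reached 22.8 and 11.9 CPM, and the 5 erythroid markers reached 1.96 and 1.13 CPM.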

How the data were processed

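Per the labels' protocols, RNA was taken after 36 h of culture, and 1.0 µg per sample went into libraries depleted of ribosomal RNA. GRCm39, mm39, STAR 2.7.8a and Partek are named in the submitters' processing notes; which step each served, and with what gene models, is not given in the sources used here. Estimated counts per gene, not normalized, were deposited by the authors, and 57.8% of the values are whole. They were expected as whole counts and were rounded.

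After a low-count filter (filterByExpr, minimum count 10) there remained 18323 genes holding 99.92% of the counts. Mutant minus control was tested on 6 libraries with TMM scaling and edgeR 4.0.16 (R 4.3.3) by its robust quasi-likelihood test, two-sided, with Benjamini-Hochberg adjustment over all genes tested. Intervals are 95%, from the standard error and the test's total degrees of freedom. Log2 CPM used a prior count of 2. Alternatives were DESeq2 1.42.0, limma-voom (limma 3.58.1), other scalings and filters, a replicate block and leaving out single libraries. The procedure was also run on simulated counts in which no library stood apart as mutant 1 did, and the outcome is not reported here. Libraries within a group differed by more than sampling noise (chi-square divided by its degrees of freedom, at least 18.7).

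The genes, lists and tests were chosen with earlier results of these data known. The naming rule took the 9 genes, Sf3b1, up to 4 genes of each pathway list with the smallest p, and the 5 genes nearest to the mean profile. Some genes that the rule names are not reported here. Eif3h and the motifs were singled out after their values were seen. Promoter sequences are from RefSeq (GRCm38.p6).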

Additional observations from a re-analysis of the deposited data

How the results depend on the processing

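None of the 9 TCR genes passed the threshold under any of the 21 alternatives run. Among these, the stricter threshold of 0.01 on the main fit could not have added a gene. Over all genes the count was 0 in edgeR and limma-voom fits and 100 in DESeq2. DESeq2 without single libraries, chosen after the data were seen, gave 215 without mutant 1, 143 without mutant 2, 374 without mutant 3, 13 without control 1, 126 without control 2 and 17 without control 3. Zap70 was the 1 gene of the 9 without overlap under all 9 alternatives tried for that count. Of all genes, 13.9% to 14.4% were without overlap under other scalings or gene sets, and 18.3% to 32.1% when a library was left out. Leaving out a library can hardly undo a separation already present, so those fits add little for Zap70. Over 126 refitted values of the 9 genes, 114 kept their direction and 12 did not. Leaving out single libraries gave log2 fold changes of -0.11 to 0.42 for Cd3e, -0.029 to 0.53 for Cd3d, -0.017 to 0.39 for Cd3g, -0.30 to 0.21 for Cd247, -0.19 to 0.14 for Cd4, -0.17 to 0.29 for Lck, -0.13 to 0.40 for Lat, 0.27 to 0.57 for Zap70 and -0.20 to -0.001 for Lcp2. Cd247 was also at -0.006 in DESeq2, -0.022 in limma-voom and -0.025 with the replicate block. The log2 difference ran from -0.19 to 0.11 for Cd3g to Cd3e and from -0.48 to 0.012 for Lcp2 to Lat, and its sign held for the other 4 ratios. The causes were not tested. With the replicate number as a block 0 genes passed (991 at an unadjusted p under 0.05, and Zap70 at 0.0663). Same-numbered samples did not visibly deviate together (correlations from -0.067 to -0.028), and 0 of 3 mutant samples correlated best with their own number. With 3 samples a group, this cannot exclude that the numbers pair the samples. With 3 libraries a group, the 95% intervals of the 9 genes reached as low as -0.60 and as high as 0.98.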
